A study of Drosophila melanogaster with 2 samples.

Results

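The 10 genes described here act in germ cell formation and germline differentiation in Drosophila melanogaster, and were taken by symbol from Ensembl gene models: pgc, gcl, osk, vas, tud, aub, piwi, bam, bgcn and zpg. All 10 were matched, among 13945 protein-coding genes on the chromosome arms. What was measured is the binding of p53 by chromatin immunoprecipitation sequencing (ChIP-seq), p53 being the fly homologue of the tumour suppressor transcription factor. Whole embryos of mixed sex, aged 0 to 24 h, came from the strain p53-MiMIC-GFP, in which an eGFP exon placed in an intron of p53 gives a p53-eGFP fusion protein. The labels name p53 as the antibody in one field and an anti-GFP antibody in another. There were 2 biological replicates, numbered 2 and 3, in 1 group with no second condition, so the values below are descriptions with no test between conditions.

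In the fly, germ cells form at the posterior pole of the egg, from cytoplasm (germ plasm) that the mother has stocked with RNA and protein. Oskar assembles the germ plasm, Vasa and Tudor build its granules, and Germ cell-less and Polar granule component help the first germ cells, the pole cells, to form and to stay transcriptionally quiet. Piwi and Aubergine are Argonaute proteins that carry piRNAs, small RNAs that silence transposons in the germ line. Later, in the gonad, Bam and its partner Bgcn switch a stem cell daughter from self-renewal to differentiation, and Zpg forms the gap junctions that join germ cells to the soma around them. p53 is known for its response to DNA damage, and in the fly germ line it has been linked to meiotic DNA breaks and to the restraint of retrotransposons. Germ cells are a small part of a whole embryo, so a region at a germline gene cannot be assigned to germ cells or to the soma from these data, and the lists hold no expression values against which the germline label could be checked.

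A set of DNA stretches is shown to place the summits at zpg and vas. Each stretch is given 5′ to 3′ on the strand of its germline gene, with the 21 bases centred on the summit of the pooled region in capitals. The zpg stretch fills 3L:6606033-6606178, the whole gap of 146 bp between the annotated starts of zpg and of Rexo5, an RNA exonuclease gene. The first vas stretch fills 2L:15060758-15060877 beside the start of TfIIS, which encodes a transcription elongation factor, and 81 transcribed untranslated bases of TfIIS are left out. The second vas stretch fills 2L:15061448-15061648, just before the start of vas itself. The last line, just outside the first vas stretch, is the closest match to a full p53 site around that summit (2L:15060708-15060727, plus strand), and there the capitals mark the 17 of 20 positions that match. All coordinates are dm6, 1-based.
zpg and Rexo5 gap: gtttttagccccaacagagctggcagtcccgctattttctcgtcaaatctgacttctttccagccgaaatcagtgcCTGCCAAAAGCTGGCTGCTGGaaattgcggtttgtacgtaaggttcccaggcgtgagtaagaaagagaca
vas, at TfIIS: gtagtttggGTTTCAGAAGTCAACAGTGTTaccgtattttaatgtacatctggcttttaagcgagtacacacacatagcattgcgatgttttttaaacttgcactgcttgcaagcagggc
vas, own start: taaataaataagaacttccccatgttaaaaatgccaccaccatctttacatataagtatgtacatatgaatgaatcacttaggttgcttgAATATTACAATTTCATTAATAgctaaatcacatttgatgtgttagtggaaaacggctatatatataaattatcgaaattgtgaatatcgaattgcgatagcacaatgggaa
vas, p53-like site: tGGCTTGTCaAGAaATGCCT

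The regions came from 4 lists. The authors' final list is called the IDR list, after the irreproducible discovery rate by which it was picked. That rate measures how alike regions rank in the replicates. The list held 2290 peaks with signal values from 75.8 to 1970 and a median of 109. A peak could be in it with unlike ranks in the replicates, or without a region in replicate 2. The signal value is the authors' strength of a region, with a scaling not given in the sources used here, and is compared only within a list. The pooled list held 26752 regions and each replicate list 30000, with background regions among them. A deposited q (a p-value adjusted for multiple testing) of 0.01 or less was held by 3355 pooled regions, 1847 of replicate 2 and 4186 of replicate 3. A rank counts from the strongest region of a list. The read depth behind a region is unknown.

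An IDR summit lay within the gene body plus 2 kb for 4 of the 10 germline genes: bgcn, zpg, vas and tud. That is 40.0% (95% Wilson interval 16.8 to 68.7, counting error only), beside 23.9% of all protein-coding genes. For the same 4 genes an IDR summit was at most 1 kb from a transcription start site (TSS), beside 15.5% of all genes. In the pooled list every one of the 10 genes had some region, which 80.9% of all genes had too, and 6 had a region at a q of 0.01 or less, beside 31.5% (60.0%, interval 31.3 to 83.2). The 6 were the same 4 with bam and piwi. In replicate 2 alone 3 genes had such a region (bgcn, vas and zpg), beside 19.6% of all genes, and in replicate 3 alone 7 had one, beside 36.7%. The 7 were those 3 with tud, bam, piwi and gcl. The intervals held the share of all genes in the IDR list by gene body, in the pooled list and in replicate 2, and lay above it for the 1 kb distance and in replicate 3. The genes were chosen with results of these data known, so nothing particular to them is read from these shares.

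**Figure D1:**
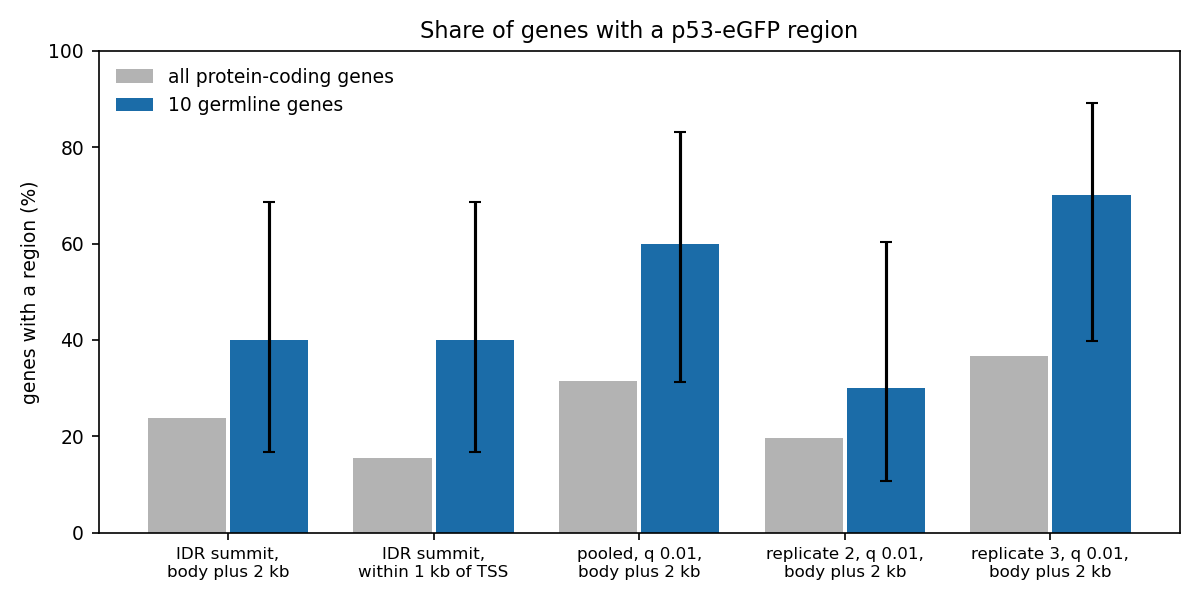
Share of genes (%) with a p53-eGFP region under 5 rules, for all protein-coding genes (grey bars) and for the 10 germline genes (blue bars, with 95% Wilson intervals for counting error as black lines). The blue bar is lowest in replicate 2 and highest in replicate 3, and the grey bars run from 15.5% to 36.7%.

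The 10 genes spread widely in strength. The strongest pooled region at each gene ran from 194.2 at bgcn to 30.64 at pgc, in the order bgcn, zpg, vas, tud, bam, piwi, gcl, osk, aub and pgc. The lowest signal value in the IDR list was 75.79, and bam, at 74.56, stood just under it. For bgcn, zpg, tud and bam the TSS nearest to that region was the gene's own. For vas, piwi, gcl, osk, aub and pgc it belonged to a neighbour, and the sections that follow give the neighbour and the distance.

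**Figure D2:**
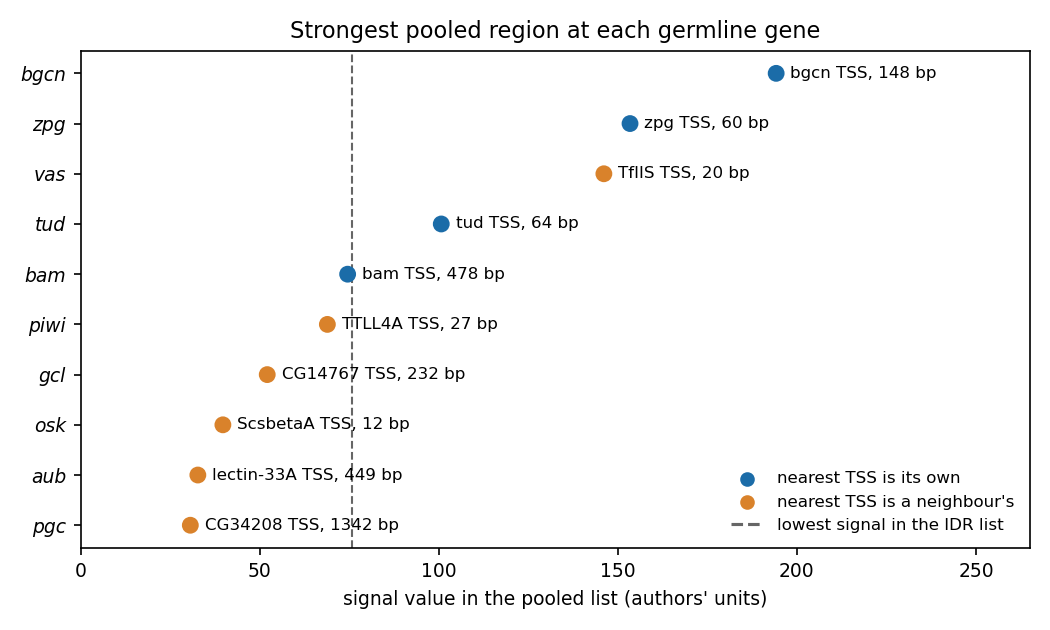
Signal value in the pooled list (authors' units) of the strongest region at each of the 10 germline genes, with the gene whose TSS lies nearest and the distance to it in bp. Blue points mark a nearest TSS that is the gene's own, orange points one of a neighbour, and the dashed line is the lowest signal value of the IDR list, 75.79; bgcn, zpg, vas and tud lie to its right.

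Among the germ plasm genes, vas (FBgn0283442, 2L:15061656-15074311, plus strand), which encodes a DEAD-box RNA helicase, had the strongest peak, but at a neighbour's start. The IDR peak at 2L:15060579-15060974 had a signal value of 146.1 and rank 592 in the pooled list. Its summit lay 20 bp from the TSS of TfIIS and 879 bp upstream of that of vas, and the pair, on opposite strands, start 899 bp apart. In replicate 2 the region had a signal value of 55.3, a q of 0.000461 and rank 726, and in replicate 3 a signal value of 97.4, a q of 0.000213 and rank 477. Both replicates thus held it at the smallest q that occurs in their list. That q is shared by 1084 regions of replicate 2 and 2351 of replicate 3. The replicate summits lay 113 bp apart, the widest gap among the 5 IDR peaks of these genes, on either side of the TfIIS start.

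The start of vas itself, which it shares with solo, a gene for chromatid cohesion in meiosis, carried a weaker region. This region (2L:15061350-15061745, summit 108 bp upstream) had a pooled signal value of 56.33, a q of 0.0252 and rank 3905, well outside the IDR list. Replicate 2 placed it at 30.1 with a q of 0.043 and rank 2500, and replicate 3 at 30.4 with a q of 0.0326 and rank 5389. Neither replicate reached a q of 0.01 there. A further region lay inside the vas body at a start of vig, a gene on the other strand within the vas span. vig is known for its product in the RNA-induced silencing complex. The summit of the region was 23 bp from the nearest vig TSS and 6445 bp from that of vas. The region had a pooled signal value of 72.66, a q of 0.00181 and rank 2493. Replicate 3 held it at 53.8 (q 0.000213, rank 1813), while replicate 2 gave 21.6 with a q of 0.299 and rank 5932. The other 6 of the 9 pooled regions at vas had signal values from 28.92 to 39.97, none at a q of 0.01 or less.

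Of the germ plasm genes, tud alone had an IDR peak nearest to its own start. tud (FBgn0003891, 2R:21183322-21192913, plus strand) encodes the protein whose repeated domains gave the Tudor domain its name, and which binds Aubergine in the granules. The peak at 2R:21183060-21183455 had its summit 64 bp upstream of the tud TSS, with a signal value of 100.7 and rank 1319, which is below the median of the IDR list. Replicate 3 gave 68.6 with a q of 0.000213 and rank 1066, and replicate 2 gave 32.3 with a q of 0.0207 and rank 2150. Replicate 2 alone would thus not have called it at a q of 0.01, though its summit was only 27 bp from that of replicate 3. The nearest other coding start, that of Pu (the GTP cyclohydrolase Punch), was 4139 bp from the summit. A tRNA gene, tRNA:Trp-CCA-2-6, starts 573 bp from tud on the opposite strand, and tRNA:Gly-GCC-1-13 starts 466 bp upstream on the same strand.

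Downstream of tud, a pooled region between tud and Lapsyn (2R:21192826-21193221) had a signal value of 71.15, a q of 0.00251 and rank 2587. It lay 547 bp from the Lapsyn TSS and 9702 bp from that of tud. Replicate 3 held it at 46.9 (q 0.000625, rank 2399) and replicate 2 at 21.8 (q 0.284, rank 5724). As at vig, the low q came from replicate 3 and the pool only.

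The other 3 germ plasm genes had no IDR peak. gcl (FBgn0005695, 2R:8724258-8728999, plus strand) encodes a protein that clears the Torso receptor so that pole cells can form. Its strongest pooled region, at 52.11 (q 0.0464, rank 4494), lay 993 bp upstream, within 232 bp of a start of CG14767 and inside that gene's coding sequence. Replicate 3 held a region there at 44.4 with a q of 0.00094 and rank 2659, and replicate 2 held none. What replicate 2 had at gcl was a pair of weak regions, 1 bp from the gcl TSS (signal value 15.6, q 0.704) and 772 bp inside the gene (18.47, q 0.504).

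osk (FBgn0003015, 3R:8935126-8938395, plus strand), whose product organises the germ plasm, had 2 pooled regions. The stronger, at 39.73 (q 0.264, rank 7782), lay 12 bp from a start of ScsbetaA, a subunit of the mitochondrial succinyl-CoA synthetase, and 3620 bp from the osk TSS, past its 3′ end. Replicate 3 gave 33.2 with a q of 0.0144 there and replicate 2 had no region. The weaker, at 24.95 (q 0.9), lay 643 bp upstream of osk within an annotated antisense RNA, and only replicate 2 had a region there (13.8, q 0.819). No region at osk reached a q of 0.01 in any list.

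pgc (FBgn0016053, 2R:22330200-22332813, plus strand) encodes a short protein that keeps pole cells silent by holding back the elongation kinase P-TEFb. Its only pooled region had the lowest value of the 10 genes, 30.64 (q 0.64, rank 14315), and lay 2297 bp from the nearest pgc TSS, in the coding sequence of Liprin-gamma. Replicate 2 gave 14.1 there with a q of 0.8, and replicate 3 gave 16.9 with a q of 0.618. Replicate 3 also had a region 98 bp from the downstream pgc start and 1 bp from that of T3dh (signal value 19.5, q 0.425). T3dh is an alcohol dehydrogenase gene on the opposite strand, whose TSS is 99 bp from that pgc start. At these q values none of the regions at pgc was called in any list.

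The piRNA genes both lay outside the IDR list. piwi (FBgn0004872, 2L:10982205-10987420, minus strand) encodes the nuclear member of the pair. Its strongest pooled region, at 2L:10989176-10989571, had a signal value of 68.9, a q of 0.00347 and rank 2735. The summit lay 27 bp from the start of TTLL4A and 1954 bp upstream of piwi, close to the edge of the 2 kb flank, with another gene, CG12253, starting 386 bp from piwi in between. Replicate 2 gave 29.3 (q 0.0492, rank 2675) and replicate 3 gave 35.7 (q 0.00588, rank 3997). No region lay within 1 kb of the piwi TSS, and the other 5 pooled regions, 3 of them in piwi coding sequence, had values from 25.97 to 33.21.

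aub (FBgn0000146, 2L:10997819-11001476, minus strand) encodes the cytoplasmic partner. It had 1 pooled region, of 32.74 (q 0.539, rank 12279), in the coding sequence of lectin-33A and 1045 bp upstream of the nearest aub TSS. Replicate 2 gave 19.2 with a q of 0.451 there, and replicate 3 had no region anywhere in the aub window. aub was the only one of the 10 genes with none in a replicate list.

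Among the differentiation genes, zpg (FBgn0024177, 3L:6604366-6606032, minus strand), which encodes an innexin, had a peak in the narrow gap shown above. The IDR peak at 3L:6605894-6606289 had a signal value of 153.4 and rank 533. Its summit was 60 bp upstream of the zpg TSS and 87 bp from that of Rexo5, which starts 147 bp away on the other strand. zpg also lies wholly within the span of a longer Rexo5 transcript. Replicate 3 gave 115 with a q of 0.000213 and rank 329, and replicate 2 gave 35.6 with a q of 0.00761 and rank 1774. The replicates placed the summit within 8 bp of each other, and zpg was far higher in the order of replicate 3 than in that of replicate 2. With peaks of a median 396 bp, a peak here covers both starts.

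bam (FBgn0000158, 3R:25243039-25245109, minus strand) had a single pooled region, whose summit lay 478 bp upstream of its TSS. The signal value of 74.56 (q 0.00106) gave it rank 2369, 79 places below the end of the IDR list. Replicate 3 held it at 50.2 (q 0.000213, rank 2089) and replicate 2 at 22.7 (q 0.238, rank 5091). The replicate summits were 1 bp apart, the closest among the 9 regions of these genes at a q of 0.01 or less, although only replicate 3 placed the region at a q of 0.01 or less. No other coding gene starts within 1 kb of the bam TSS.

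bgcn (FBgn0004581, 2R:23853270-23858921, minus strand), which encodes a protein related to DExH-box helicases and binds Bam, was the gene with the strongest region of the 10. Its IDR peak at 2R:23858575-23858970 had a signal value of 194.2 and rank 309, with the summit 148 bp downstream of the bgcn TSS in its 5′ UTR. Replicate 2 gave 64.2 (q 0.000461, rank 538) and replicate 3 gave 130.0 (q 0.000213, rank 222), with summits 4 bp apart. Both replicates held it at the smallest q in their list, which many other regions share. The nearest other coding start on either side of this summit, that of Pym, was 1837 bp away.

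bgcn was also the only gene of the 10 with a second IDR peak. This peak, at 2R:23856760-23857155, had a signal value of 130.5 and rank 762, and lay in a bgcn intron, 1963 bp from the bgcn TSS. It was 22 bp from the start of Pym, a gene nested there on the same strand that encodes a partner of the exon junction complex. Replicate 2 gave 48.8 (q 0.000461, rank 929) and replicate 3 gave 85.1 (q 0.000213, rank 647), and the summits lay 60 bp apart. The rule by gene body thus gave bgcn a pair of peaks, of which 1 is nearest to its own start.

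**Figure D3:**
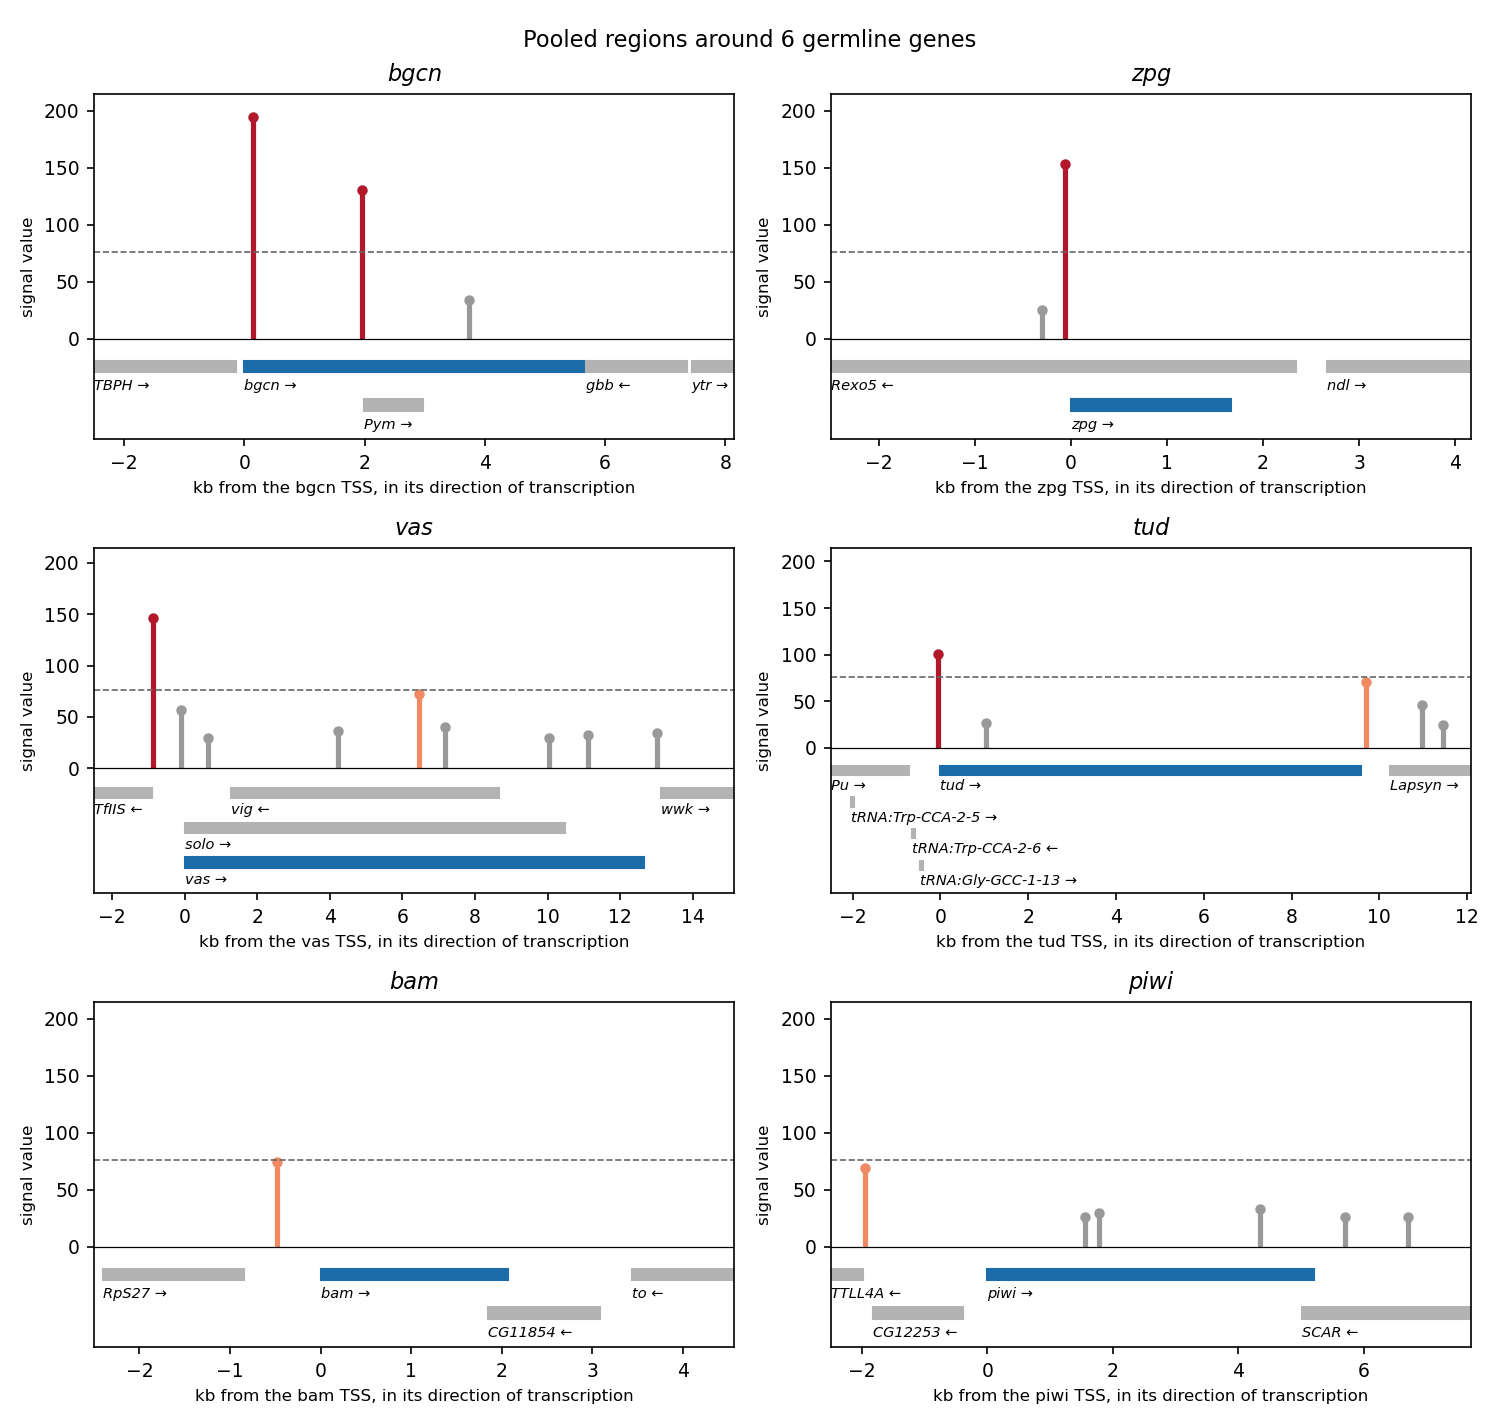
Signal value (authors' units) of each pooled region at bgcn, zpg, vas, tud, bam and piwi, drawn at its summit against the distance in kb from the gene's TSS. Dark red marks IDR peaks, orange other regions at a q of 0.01 or less and grey the rest; the dashed line is the lowest signal value of the IDR list, bars under the axis are genes (blue for the germline gene) and arrows give their direction relative to it. The tallest region stands at the gene's own start for bgcn, zpg and tud, and at that of TfIIS for vas.

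By position, 3 of the 5 IDR peaks lay nearest to the start of the germline gene itself (bgcn, zpg and tud) and 2 nearest to that of another gene (TfIIS and Pym). Of the 5 summits, 4 lay within 100 bp of a protein-coding TSS, where 35.5% of all IDR summits lay, and all 5 within 500 bp, beside 60.9%. With each gene taken at its strongest IDR peak, 1 of 4 (vas) was nearer to the TSS of another gene, beside 51.6% of the 3329 genes with an IDR peak in their body plus 2 kb. A promoter was counted as shared when another gene's TSS was nearer to the summit, or when a divergent coding start lay within 1 kb of the gene's own. By that rule 2 of 4 strongest peaks were at shared promoters (vas and zpg), beside 70.4% of genes. tud and bgcn were not, unless non-coding genes are counted, when the divergent tRNA gene puts tud among them.

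Divergent neighbours were counted for all 10 genes, whether or not a peak was there. A divergent coding start lay within 1 kb upstream of 6 of the 10 (60.0%), beside 36.2% of all protein-coding genes: pgc at 99 bp, zpg at 147 bp, piwi at 386 bp, gcl at 419 bp, aub at 596 bp and vas at 899 bp. Of these 6, only zpg and vas had an IDR peak. Each IDR peak also fell within the body plus 2 kb of other coding genes, from 2 genes in all for zpg, tud and the Pym peak to 4 for vas, where TfIIS, solo and CG33679 share it. At least 2 genes share 60.3% of all IDR summits in this way. The strongest bgcn peak is shared by 3, the third being TBPH, the homologue of TDP-43.

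Over all 36 pooled regions at the 10 genes, 12 were nearest to the germline gene's own start and 24 to another gene's. Of the 9 regions at a q of 0.01 or less, 4 were nearest to the gene's own start (bgcn, zpg, tud and bam) and 5 to that of TfIIS, Pym, vig, Lapsyn or TTLL4A. None of those 9 summits lay in coding sequence. These splits and the coding-sequence count were not made over the regions of all genes. The gene body plus 2 kb takes in neighbours' starts for any gene, so they are not read as traits of the 10 genes. Within 500 bp of a coding TSS lay 8 of the 9, beside 59.7% of all pooled regions at that q. Again only the 9 were picked for lying in a gene body plus 2 kb.

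All 9 regions at a q of 0.01 or less overlapped a region in both replicate lists, as did 98.7% of the 3355 pooled regions at that q. Both replicate lists are 30000 regions long, and 8 of the 9 stood higher in the order of replicate 3 than of replicate 2, beside 51.9% of the 3311 found in both. The exception was the TTLL4A region upstream of piwi. In replicate 2 only the regions at bgcn, Pym, TfIIS and zpg reached a q of 0.01. At tud, bam, vig, Lapsyn and TTLL4A replicate 3 reached it and replicate 2 did not.

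**Figure D4:**
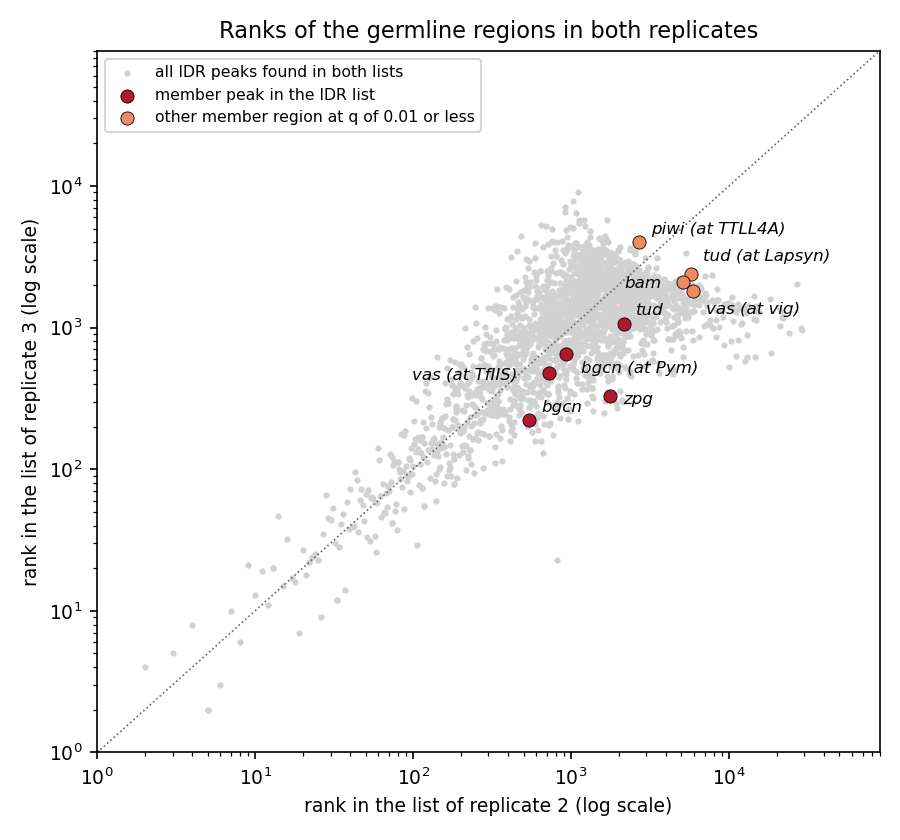
Rank in the list of replicate 2 against rank in that of replicate 3, on log axes, where rank 1 is the strongest region. Grey points are IDR peaks found in both lists, red points the 5 IDR peaks at germline genes and orange points their 4 other regions at a q of 0.01 or less; the dotted line marks equal ranks, and 8 of the 9 lie below it, with piwi above.

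Short sequence words were looked for on either strand, up to 100 bp from each pooled summit. Of the 5 IDR summits, 1, the strongest bgcn peak, held a p53 half-site, beside 4.54% of all IDR summits and 3.31% of windows of the same length at the starts of protein-coding genes. The closest match to a full p53 site, a pair of half-sites with 20 positions, was at vas beside TfIIS, with 3 mismatches. That site, shown above, lies in the 5′ UTR of TfIIS, 59 bp from the summit, and such a match or a better one was at 7.21% of IDR summits and 5.67% of gene starts. The best matches had 4 mismatches at tud and at the strongest bgcn peak, and 5 at zpg, piwi and the Pym peak. They had 6 at the vig start and in the window between tud and Lapsyn. Matches with at most 4 mismatches were at 32.2% of IDR summits and those with at most 5 at 79.5%, and at 29.3% and 77.1% of gene starts. None of these matches shows that p53 binds there.

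Words of promoter factors were looked for around the same summits. The word of DREF (TATCGATA), a factor of growth gene promoters, was at the Pym peak alone, beside 6.51% of all IDR summits and 7.84% of gene starts. The GAGA factor word (GAGAG) was at 2 of the 9 regions at a q of 0.01 or less, the Pym peak and the vig start, beside 25.5% and 22.5%. The TATA box word (TATAAA) was at 1 of the 5 IDR summits, the Pym peak, and in the second vas stretch printed above it lies 56 bp upstream of the vas TSS (2L:15061600-15061605), beside 23.2% and 29.2%. The word of Zelda (CAGGTA), which opens chromatin in early embryos, was at none of the 5 IDR summits but occurred 4 times in the window between tud and Lapsyn, beside 4.54% and 4.3% of windows with at least 1. The M1BP word (GGTCACAC) and the E-box (CACGTG) were at none of the 5, beside 4.72% and 3.45% of IDR summits, and neither were the Jun/Fos and Ohler6 words, beside 1.92% and 0.961%.

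Of a wider list of 130 other germline genes in 5 groups, 124 were matched by symbol, and 26 of these (21%) had an IDR summit at most 1 kb from a TSS, beside 15.5% of all genes. Their signal values ran from 77.1 to 191 with a median of 106, beside 109 over the IDR list, and for 18 of the 26 the nearest TSS was their own. By group, germ plasm assembly and maternal RNA control had peaks at 11 of 27 genes (40.7%). The group of germ cell migration and the pole cell programme had them at 4 of 12 (33.3%), and stem cell maintenance and differentiation at 9 of 33 (27.3%). The 4 of 12 were CycB, bcd, polo and wun (CycB and polo are named after their values were seen). The group names are loose labels, since bcd RNA marks the anterior pole. The piRNA pathway had peaks at 2 of 28 (7.14%), and meiosis and gamete differentiation at 0 of 24. The nearest TSS was the gene's own for only 6 of the 11 germ plasm genes with a peak. It was so for 4 of 4 in the migration group, 6 of 9 in the stem cell group and 2 of 2 in the piRNA group. The list was chosen with earlier results of these data known, so the shares are not read as traits of the groups. By gene body plus 2 kb, the rule first used for the 10 genes, 48 of the 124 (38.7%) had an IDR summit, beside the 23.9% of all genes given above. Under that rule germ plasm assembly had 17 of 27 (63.0%), stem cell maintenance 17 of 33 (51.5%), migration and pole cells 6 of 12, meiosis 4 of 24 (16.7%) and the piRNA pathway 4 of 28 (14.3%). A longer gene has a wider window under that rule, and gene length was not taken into account in these shares. The piRNA genes with a peak within 1 kb were papi and tej, both with Tudor domains (tej is named after its value was seen), so piwi and aub share with the 26 other matched genes of the pathway that they had none at that distance.

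The highest values on the wider list were near that of bgcn. Mad, the transcription factor of the BMP signal that keeps bam off in stem cells, had a peak of 191 at rank 323, with rank 208 in replicate 2 and 529 in replicate 3. papi, whose protein sits on mitochondria and takes part in trimming piRNAs, had 186 at rank 344 (610 and 228). brat, a translational repressor that acts with Pumilio and Nanos, had 183 at rank 357 (345 and 402), and lola, a transcription factor gene, 156 at rank 515. Peaks of bcd (153), whose RNA marks the anterior pole, and of wun (143), a lipid phosphatase that steers migrating germ cells, were nearest to their own starts. Those listed for wuho (140) and smg (131), a regulator of maternal RNA, were nearest to the starts of Top3beta and CG5087. zpg, at rank 533, stood next after bcd at rank 532. The summits at Mad, brat and lola lay 714, 701 and 514 bp from the nearest TSS of the gene, beside 148 bp at bgcn. For the other genes of the wider list named here that distance was at most 397 bp, at wun.

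**Figure D5:**
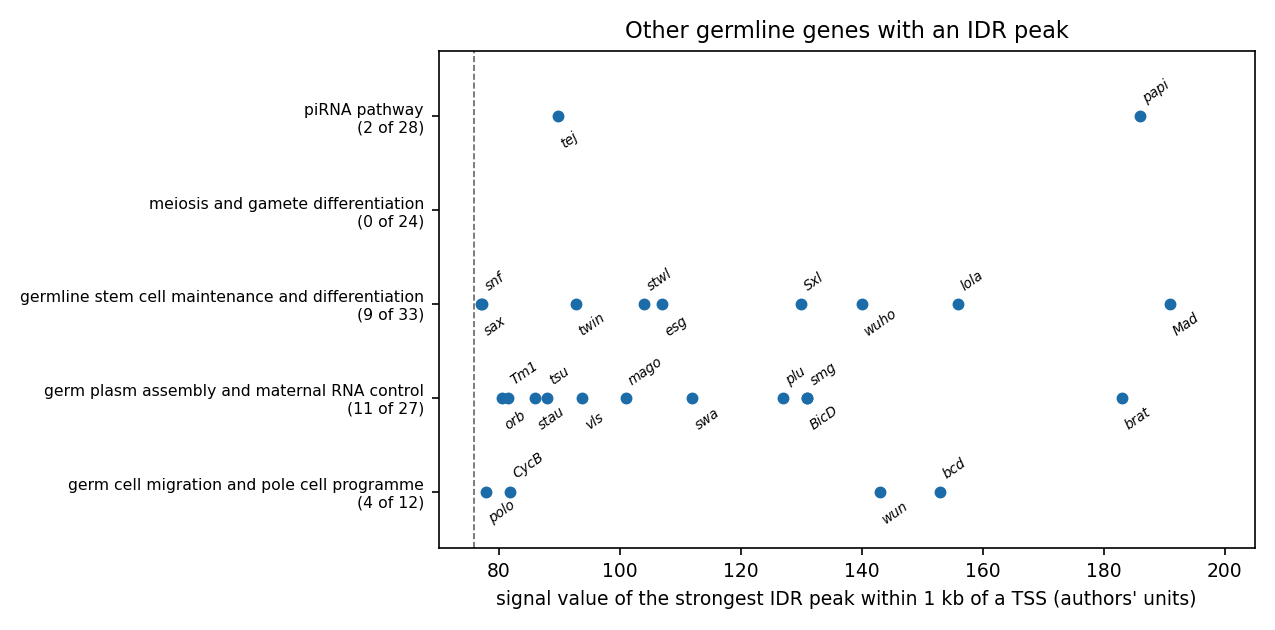
Signal value (authors' units) of the strongest IDR peak within 1 kb of a TSS for each of the 26 other germline genes with one, by group; the numbers beside each group are the genes with a peak and those matched. The dashed line is the lowest signal value of the IDR list; values run from 77.1 to 191, and meiosis and gamete differentiation has no point.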

How the data were processed

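The samples were 2 ChIP-seq replicates of whole p53-eGFP embryos (0 to 24 h). Per the deposited provenance notes, the authors made a region list per replicate, a pooled list and a final IDR list, all set against 1 shared control library (not used here). Per the labels, chromatin was sonicated. Not given in the sources used here are the IDR threshold, the aligner and the caller of peaks. The signal value per region is as the authors deposited it, and the q-values come from the −log10 q the authors deposited beside it.

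Gene models were Ensembl release 115 (BDGP 6.54), of the same assembly as the dm6 lists. Sequences were read from the RefSeq genome of that assembly, and that upstream of 1 gene is not reported here. The dm3 lists were not used. A region belonged to a gene when its summit lay in the gene body plus 2 kb. Tables were made with Python 3.11.15, pandas 2.3.3 and numpy 2.4.6, and Wilson intervals (statsmodels 0.14.6) cover counting error only. The summit assignment was tested on simulated data. Pooled regions were paired with the replicate regions they overlap. The 10 genes, the wider list and the words were chosen with earlier results of these data known. All 10 genes were to be named, with genes that start within 1 kb of, or hold, their IDR summits, and the 8 strongest of the wider list; neighbours named at other regions were chosen after their values were seen. The replicates share no contrast, so no test was run. Alternatives were other flanks, distances, lists, gene types and each replicate alone, taken as its 2290 strongest regions, or as its whole list for counts of genes with any region.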

Additional observations from a re-analysis of the deposited data

How the results depend on the processing

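Of 27 alternatives over 5 counts, 23 stayed within 1.5 times the main count and 4 moved. The 23 are a weak measure of stability, because a change from 4 to 6 or from 2 to 3 is within that limit. A count of 10 of 10 could not rise with a wider flank, and a list cut to its stronger part could not raise a count. The count of germline genes with an IDR summit in the body plus 2 kb (4) was 1 with no flank, when only bgcn remained, and 7 with a 5 kb flank, when aub, bam and osk joined; all protein-coding genes stood at 7.48% and 33.8% under those rules. With no flank, 5 of the 10 genes had a pooled region in their body in place of 10, beside 49.8% of all genes. Among the 1145 strongest IDR peaks, 12 genes of the wider list had a summit at most 1 kb from a TSS in place of 26, beside 8.13% of all genes. With each replicate left out in turn, the count by gene body ran from 4 to 5 and that within 1 kb from 4 to 5, with bam the gene added without replicate 2. The wider list ran from 22 to 27, and the genes with any region in the list from 9 to 10, aub being lost without replicate 2. Within 500 bp of a TSS 3 genes remained, vas having dropped out. With genes of every type, 3 strongest peaks in place of 2 were at shared promoters. No paired analysis was possible because the replicates form 1 group and no result comes from a test. The read depth behind each region and the scaling of the signal value are unknown, and so is whether a region would also be found with an unrelated antibody.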

Other observations

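Outside the 2 kb flank, the nearest IDR peaks to bam, aub and osk lay close by, at the starts of neighbours that were looked at after the values were seen. The peak nearest to bam, 2419 bp from its body, lay 14 bp from the start of RpS27, a ribosomal protein gene, with a signal value of 425.9 and rank 58. That value was higher than at any of the 10 genes. The peak nearest to aub, 2675 bp away, lay 2 bp from the start of RpL9, another ribosomal protein gene, with 166.7 and rank 447, and the same peak was the nearest to piwi at 16731 bp. The peak nearest to osk, 3122 bp away, lay 108 bp from a start of pyd, a cell junction gene, with 102.5 and rank 1278. For pgc and gcl the nearest IDR peaks were 42239 bp and 68467 bp away. They lay 38 bp from the start of Rtf1 and 6142 bp from that of ptc.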
